A study of Mus musculus with 31 samples.

Results

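The lungs of untreated AKR mice were compared with those of untreated C57BL/6 mice (C57 from here on) breathing room air. The comparison held 6 of the 31 expression arrays of the series, taken by their titles: 3 arrays of AKR lung and 3 of C57 lung, each titled 6 weeks of room air and not instilled with anything. All 6 were labelled male, age 6 wk, with RNA from lung tissue. No allele, agent or transgene was labelled for either group, so the groups differed in strain alone as far as the labels say. The other 25 arrays were of lungs given cigarette smoke, room air, intratracheal lipopolysaccharide or saline, and 2 of them were of AKR lung titled 3 weeks of room air. The titles and the series description give the weeks of exposure to different groups (the titles give 3 weeks to instilled mice and 6 to the room air lungs, the description the reverse), so the time in the exposure chamber was uncertain. The labels call the arrays of a group biological replicates and say no more about the animals. The C57 label names no substrain.

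AKR and C57 are inbred strains, in which every animal carries the same alleles, so a difference between them can stem from any of the many sites at which their genomes differ. AKR mice carry active endogenous murine leukemia virus and the k haplotype of the major histocompatibility complex, and they lack complement C5 in plasma. C57 mice carry the b haplotype of the complex, and their genome is the one on which the mouse reference sequence, and hence the probes of most mouse arrays, was based. The question put to these arrays was which lung transcripts differ between the strains before any smoke or endotoxin.

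Values are log2 intensities of a probe set, so that a difference of 1 is a factor of 2 in intensity; errors after ± are standard errors of a difference between 3 AKR and 3 C57 arrays. Across the 13735 genes tested, arrays of the same strain correlated at 0.969 to 0.991 and arrays of different strains at 0.959 to 0.976. Principal component 1 held 49.0% of the variance and separated the strains, with AKR arrays at 5.61 to 22.6 and C57 arrays at -21.3 to -1.48, while C57 array 1 stood apart on component 2 at -25.9. The tissue label was borne out by lung markers: Sftpc, the surfactant protein C of alveolar type 2 cells, read 13.40 to 13.73, and Scgb1a1, the secretoglobin of club cells, 13.31 to 13.70. Uty, Eif2s3y and Kdm5d, genes of the Y chromosome, read 8.49 to 9.79 on all 6 arrays, as the male label calls for, while Xist read 4.61 to 4.88.

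Arrays of a strain did differ in how much airway, heart and fat signal they carried. Relative to the mean of the 6 arrays, the 15 tested club and secretory cell genes averaged -0.62, 0.43 and -1.29 on AKR arrays 1, 2 and 3, and -0.50, 1.00 and 0.98 on C57 arrays 1, 2 and 3. The 11 tested heart muscle genes averaged -0.55, 0.94 and -0.60 on the AKR arrays and -1.07, 0.72 and 0.55 on the C57 arrays. For 5 tested adipocyte genes the averages were -0.50, 0.14 and -0.53 in AKR and -0.47, 0.82 and 0.54 in C57. AKR array 2 and C57 arrays 2 and 3 thus carried more signal of these genes than the other 3 arrays. This split ran within each strain, but unevenly, with more C57 than AKR arrays on the high side. Airway content was therefore not balanced between the strains: 13 of 15 club and secretory genes (median -0.33) and 14 of 14 ciliated genes (median -0.38) were lower in AKR. Airway genes named for their large spread were not called: Bpifa1, an antimicrobial protein of the upper airway, read 7.71, 10.92 and 6.01 in AKR and 9.08, 13.56 and 13.48 in C57, a difference of -3.83 ± 1.49 with an adjusted p of 0.264. Reg3g, an epithelial lectin that kills bacteria, differed by -3.39 ± 1.7 and Muc5b, a gel-forming airway mucin, by -1.80 ± 0.97, with adjusted p of 0.393 and 0.425. Alveolar type 2 and endothelial lists split the same arrays the other way by smaller amounts. The averages of both lists were below 0 on AKR array 2 and C57 arrays 2 and 3 and above 0 on the other 3, between -0.14 and 0.10 for alveolar type 2 and between -0.25 and 0.16 for endothelial genes.

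**Figure D1:**
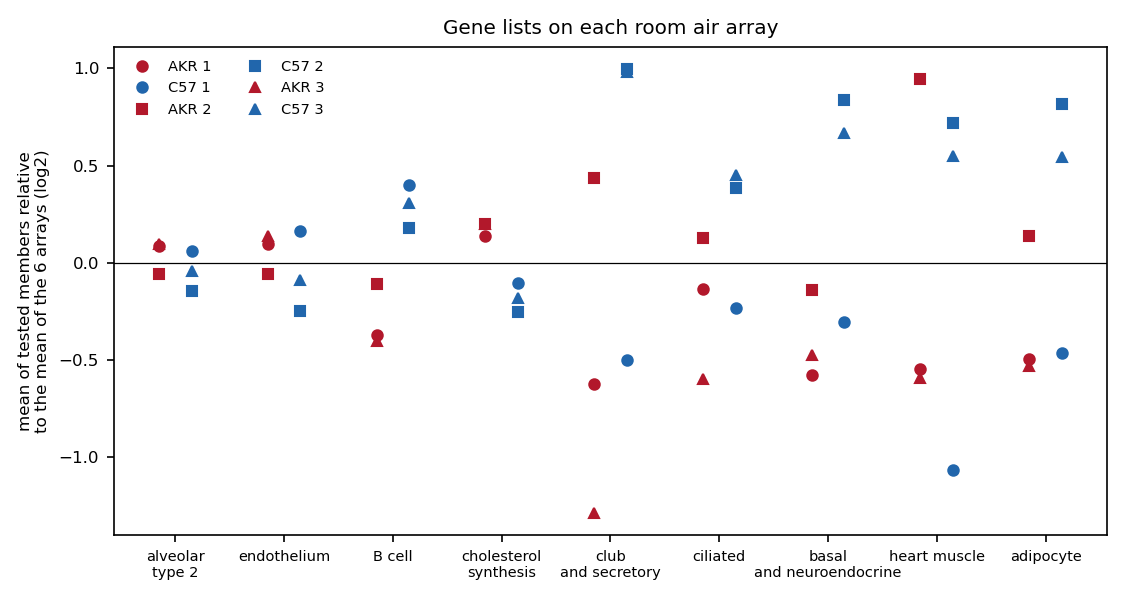
Mean of the tested members of 9 gene lists on each room air array, relative to the mean of the 6 arrays, in log2 units. Red symbols are AKR arrays, blue symbols C57 arrays, and shapes give the replicate number. The club, heart and adipocyte lists spread widely within each strain (club from -1.29 to 1.00), whereas the B cell and cholesterol lists separate red from blue.

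Of the 13735 genes tested, limma called 412 (3.00%) at an adjusted p under 0.05, 190 higher in AKR (1.38%) and 222 lower (1.62%). The median difference over all genes tested was 0.01, and the median standard error 0.10. Called genes had a median absolute difference of 0.69. Only 110 of them (0.801% of genes tested) differed by 1 or more, 42 higher in AKR and 68 lower, and 12 by 2 or more, 3 higher and 9 lower. On all 412 the AKR and C57 arrays did not overlap, as was true of 3022 genes tested (22%). A lack of overlap, given below for single called genes, thus adds nothing to their calls. A gene had to be bright on 3 arrays to be tested. Of the called genes, 17 passed that filter only through the AKR arrays and 23 only through the C57 arrays, as did 29 and 43 of all tested, and these had to differ in order to be there. A gene below the filter in 1 strain reads close to the array's floor there, so that its difference is one of intensities and can understate that of the RNA. Leaving out AKR array 1, 2 or 3 gave 182, 256 and 143 called genes, and leaving out C57 array 1, 2 or 3 gave 586, 136 and 183, so 5 of the 6 omissions cut the count by more than 1.5 times. In each of these 6 fits, no gene of the 412 changed direction. With 3 arrays a strain, an exact permutation test of a single gene cannot go below a two-sided p of 0.10, so that the calls rest on limma's pooling of the spread across genes.

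**Figure D2:**
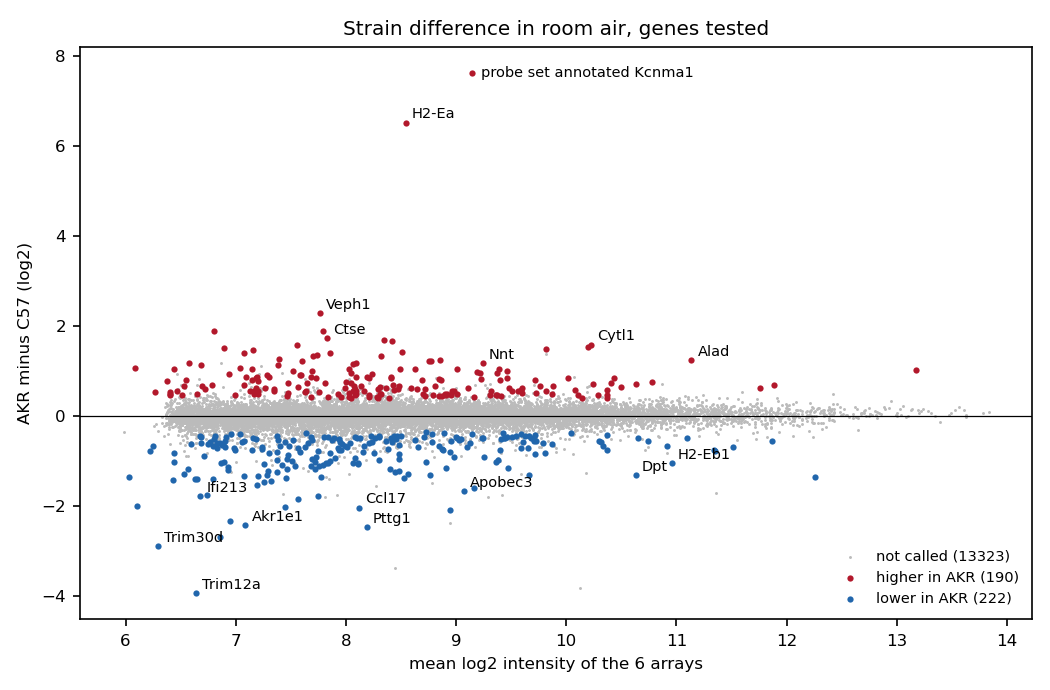
Difference in log2 intensity between AKR and C57 lung in room air (vertical axis, mean of 3 AKR arrays minus mean of 3 C57 arrays) against the mean of the 6 arrays (horizontal axis) for 13735 genes. Red points are the 190 genes called higher in AKR, blue points the 222 called lower, and grey points the rest. H2-Ea at 6.51 and Trim12a at -3.94 lie farthest from 0 among named genes, and 1 probe set annotated Kcnma1 lies higher still.

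Several genes known to differ between inbred strains were among those called. H2-Ea encodes the alpha chain of the class II molecule E, which the b haplotype of C57 cannot make because the promoter of the gene is deleted. It read 11.74, 11.84 and 11.81 on the AKR arrays and 5.30, 5.44 and 5.12 on the C57 arrays, where it lay at the percentile 20.8 of all probe sets. The strains differed by 6.51 ± 0.10, the smallest adjusted p of the comparison (9.33e-08). Alad, the second enzyme of heme synthesis, whose copy number varies among inbred strains, read 11.75, 11.71 and 11.81 in AKR and 10.77, 10.41 and 10.36 in C57, a difference of 1.24 ± 0.12 (adjusted p = 0.00192). Glo1, the glyoxalase that clears methylglyoxal, is another gene of varying copy number. It read 9.97, 9.98 and 9.94 in AKR and 8.96, 9.0 and 8.94 in C57, a difference of 1.00 ± 0.07, and its second probe set gave 1.00 as well. Nnt, the mitochondrial transhydrogenase that makes NADPH, is partly deleted in the substrain C57BL/6J. It read 9.79, 9.98 and 9.71 in AKR and 8.52, 8.72 and 8.73 in C57, a difference of 1.17 ± 0.10 (adjusted p = 0.00141). In none of these 4 genes did the strains overlap.

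Of 19 tested genes at loci known to vary between strains, 9 were called, 5 higher in AKR and 4 lower, with a median of -0.09. This list was drawn up because its genes vary between strains, so its share of calls is no finding of its own. Besides those above, Wdfy1, an endosomal adaptor of Toll-like receptors, was higher by 0.73 ± 0.09. Hc, the gene of complement C5, read 10.96, 10.95 and 10.97 in AKR and 11.76, 11.63 and 11.77 in C57, lower by a difference of -0.76 ± 0.08. Entpd4, a nucleotidase of the Golgi, differed by -0.59 ± 0.08 and lost its call without AKR array 3 or C57 array 2 (adjusted p up to 0.0604). Among those not called were Ide, the insulin-degrading enzyme, at -0.72 ± 0.15 (adjusted p = 0.0509), Ahr, the dioxin receptor, at -0.34 ± 0.15 (adjusted p = 0.313), and Fv1, a capsid-binding restriction factor, at -0.57 ± 0.17 (adjusted p = 0.162).

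**Figure D3:**
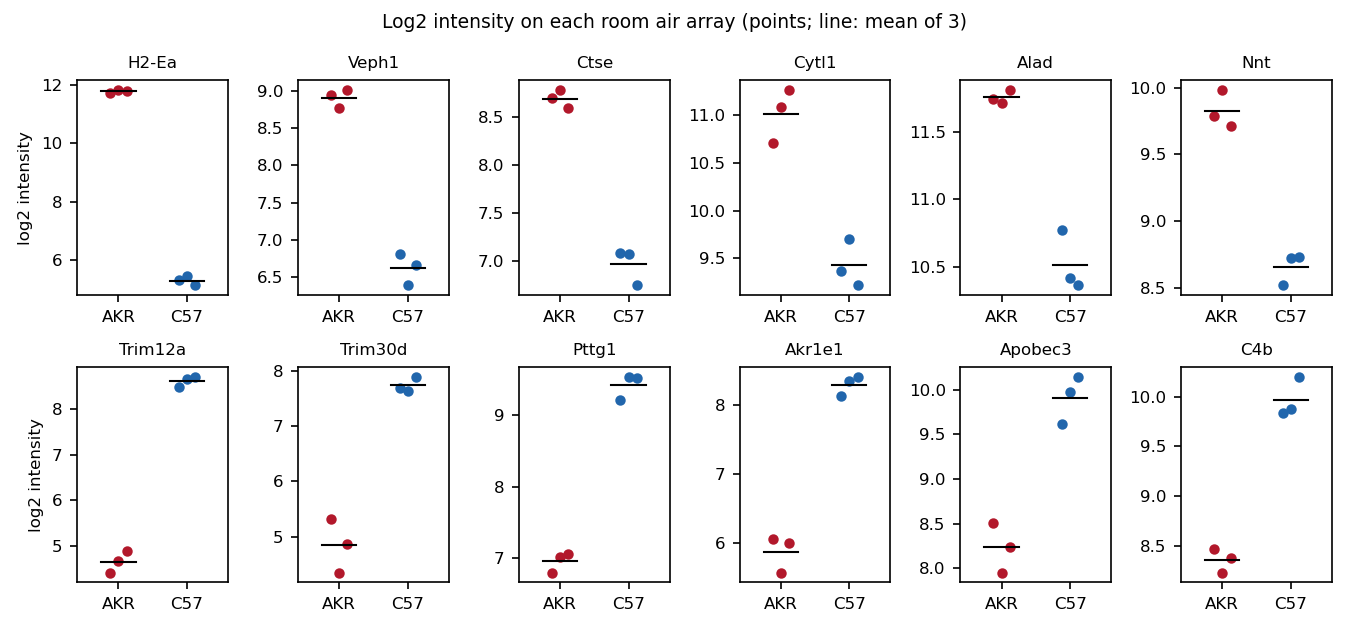
Log2 intensity of 12 genes on each of the 3 AKR (red) and 3 C57 (blue) room air arrays, with the mean of each strain as a line. Each panel has its own vertical axis, which does not start at 0. In every panel the AKR points lie entirely above or entirely below the C57 points, by the widest margin in H2-Ea (11.7 to 11.8 against 5.12 to 5.44).

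Class II molecules are built from an alpha and a beta chain, present peptides to CD4 T cells, and are made mainly by B cells, dendritic cells and macrophages. In contrast to H2-Ea, its partner chains and several other class II genes read lower in AKR. The strains carry different haplotypes of the complex, and whether AKR sequence under the probes moved the values below was not tested. H2-Eb1, the beta chain of E, read 10.37, 10.49 and 10.42 in AKR and 11.48, 11.51 and 11.47 in C57. H2-Eb2, a second E beta gene, read 6.54, 6.79 and 6.56 in AKR and 7.88, 8.0 and 7.95 in C57. H2-Ob, the beta chain of the peptide-loading modulator O, read 8.02, 8.22 and 8.07 in AKR and 9.43, 9.39 and 9.43 in C57. All 3 genes separated the strains without overlap, with differences of -1.06 ± 0.07, -1.31 ± 0.09 and -1.31 ± 0.08 (adjusted p = 0.000587, 0.000611 and 0.000348). H2-Ab1, the beta chain of the class II molecule A, was lower by a smaller amount, -0.56 ± 0.08 (adjusted p = 0.0111). Its partner H2-Aa differed by -0.38 ± 0.10 and was not called (adjusted p = 0.106), nor was H2-DMa of the peptide exchanger DM at -0.48 ± 0.10 (adjusted p = 0.0589).

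The promoters of class II genes carry a conserved Y box, bound by the factor NF-Y, upstream of the start site. The windows of 4 class II genes are shown because they allow the reader to compare genes that were lower in AKR (H2-Eb1, H2-Eb2 and H2-Ob) with one that was not called (H2-Aa). They are RefSeq sequences of the C57BL/6J reference (GRCm38.p6), from 250 bases before to 50 after the start, in the direction of the gene, and they say nothing of the AKR alleles. Capitals mark CTGATTGG, the Y box letters searched on both strands.
H2-Eb1 (chr17:34305617-34305916, plus strand): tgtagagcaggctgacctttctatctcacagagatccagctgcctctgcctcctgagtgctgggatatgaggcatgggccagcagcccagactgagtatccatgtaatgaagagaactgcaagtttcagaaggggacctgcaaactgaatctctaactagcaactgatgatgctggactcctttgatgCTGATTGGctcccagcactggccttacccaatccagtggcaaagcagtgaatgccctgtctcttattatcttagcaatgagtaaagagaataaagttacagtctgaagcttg
H2-Eb2 (chr17:34325425-34325724, plus strand): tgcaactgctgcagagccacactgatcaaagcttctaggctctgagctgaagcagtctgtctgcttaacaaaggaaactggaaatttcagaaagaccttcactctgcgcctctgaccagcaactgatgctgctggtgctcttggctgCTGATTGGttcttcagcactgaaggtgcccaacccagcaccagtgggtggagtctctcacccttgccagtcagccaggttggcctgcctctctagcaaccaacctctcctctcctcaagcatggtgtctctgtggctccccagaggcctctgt
H2-Ob (chr17:34238655-34238954, plus strand): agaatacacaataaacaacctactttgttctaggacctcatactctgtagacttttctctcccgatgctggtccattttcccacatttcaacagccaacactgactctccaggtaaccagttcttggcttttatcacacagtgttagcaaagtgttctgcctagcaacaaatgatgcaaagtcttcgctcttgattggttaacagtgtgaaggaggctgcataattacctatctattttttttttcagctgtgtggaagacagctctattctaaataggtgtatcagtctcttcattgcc
H2-Aa (chr17:34287774-34288073, minus strand): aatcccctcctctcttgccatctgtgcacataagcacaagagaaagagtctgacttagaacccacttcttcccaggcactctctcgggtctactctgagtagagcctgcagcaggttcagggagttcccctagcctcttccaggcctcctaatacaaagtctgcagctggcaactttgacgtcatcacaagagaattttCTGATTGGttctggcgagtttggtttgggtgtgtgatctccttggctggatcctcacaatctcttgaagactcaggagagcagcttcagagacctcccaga
The letters occurred 1 time each in H2-Eb1, H2-Eb2, H2-Aa and H2-Oa, and in 4.1% of all 32851 promoter windows of this length. They were not in the windows of H2-Ob, H2-DMa, H2-DMb1 or H2-DMb2. A match is a description of letters and not of a bound site, and genes with and without it were lower in AKR. H2-Ea, H2-Ab1 and Cd74 had no entry in the table.

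Over the whole complex, 7 of 19 tested genes were called, 2 higher in AKR and 5 lower, with a median of -0.28, beside 3.00% called and a median of 0.01 for all genes. H2-T24, a nonclassical class I gene, was higher by 1.04 ± 0.14 (adjusted p = 0.0086), and H2-Q2, a class I-like gene, was lower by a difference of -0.60 ± 0.09 (adjusted p = 0.0163). Near-identical class I genes can share probes, so these values may mix copies. Without AKR array 1, 2 or 3 the count of called genes in the complex was 6, 7 and 6, and without C57 array 1, 2 or 3 it was 8, 4 and 6. None of 5 genes of the class II pathway outside the complex, or B2m, was called. Cd74, the invariant chain that escorts class II molecules, differed by -0.07 ± 0.09 (adjusted p = 0.775), and Ciita, their master transcriptional activator, by -0.38 ± 0.08 (adjusted p = 0.0623).

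B cell genes were lower in AKR lung. Of 13 tested markers, 6 were called, all lower, against 1.62% of all genes called lower, and all 13 differences were below 0 (median -0.56). Fcer2a, the low-affinity IgE receptor CD23, read 7.17, 7.32 and 7.07 in AKR and 8.35, 8.29 and 8.31 in C57. Bank1, a B cell scaffold protein, read 7.85, 7.83 and 7.73 in AKR and 8.83, 8.75 and 8.80 in C57. The strains did not overlap in either gene, with differences of -1.12 ± 0.09 (adjusted p = 0.000748) and -0.99 ± 0.08 (adjusted p = 0.000741). Cd22, an inhibitory receptor of B cells, differed by -0.68 ± 0.09, Ms4a1, the surface antigen CD20, by -0.60 ± 0.12, and Pax5, the transcription factor of B cell identity, by -0.59 ± 0.10, all called, as was the kinase gene Blk. Cd79a and Cd79b, the signalling chains of the B cell receptor, differed by -0.54 ± 0.23 and -0.56 ± 0.20 and were not called (adjusted p = 0.304 and 0.223). In whole lung, fewer cells of a type and less RNA per cell cannot be told apart. Without AKR array 1, 2 or 3 there were 3, 5 and 3 called B cell markers, and without C57 array 1, 2 or 3 there were 6, 4 and 3. Fcer2a, Bank1 and Cd22 kept their call without each array in turn, while Ms4a1, Pax5 and Blk each lost it without at least 4 of them (adjusted p up to 0.178).

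Other lymphocyte lists held at most 1 call each, beside 3.00% of all genes called and 1.62% called lower. None of 13 T cell markers and none of 9 natural killer cell markers was called, though all 9 of the latter were below 0 (median -0.40). Klrb1b, an inhibitory receptor of natural killer cells whose alleles vary between strains, was the only called member among 5 tested receptors of its families. It read 7.17, 6.97 and 7.22 in AKR and 8.27, 8.36 and 8.30 in C57, a difference of -1.19 ± 0.09 (adjusted p = 0.000663). Klra8, the activating receptor Ly49H, which C57 mice carry and many strains lack, lay under the intensity filter. It read 4.63, 4.69 and 4.77 in AKR and 6.39, 6.68 and 6.99 in C57, and in the fit without the filter it differed by -1.99 ± 0.15 (adjusted p = 0.000608). Igha, the constant region of IgA, read 6.80, 7.69 and 7.11 in AKR and 8.36, 8.12 and 8.22 in C57, a difference of -1.03 ± 0.21 (adjusted p = 0.0435) that was lost without any array other than AKR 2, up to an adjusted p of 0.174.

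**Figure D4:**
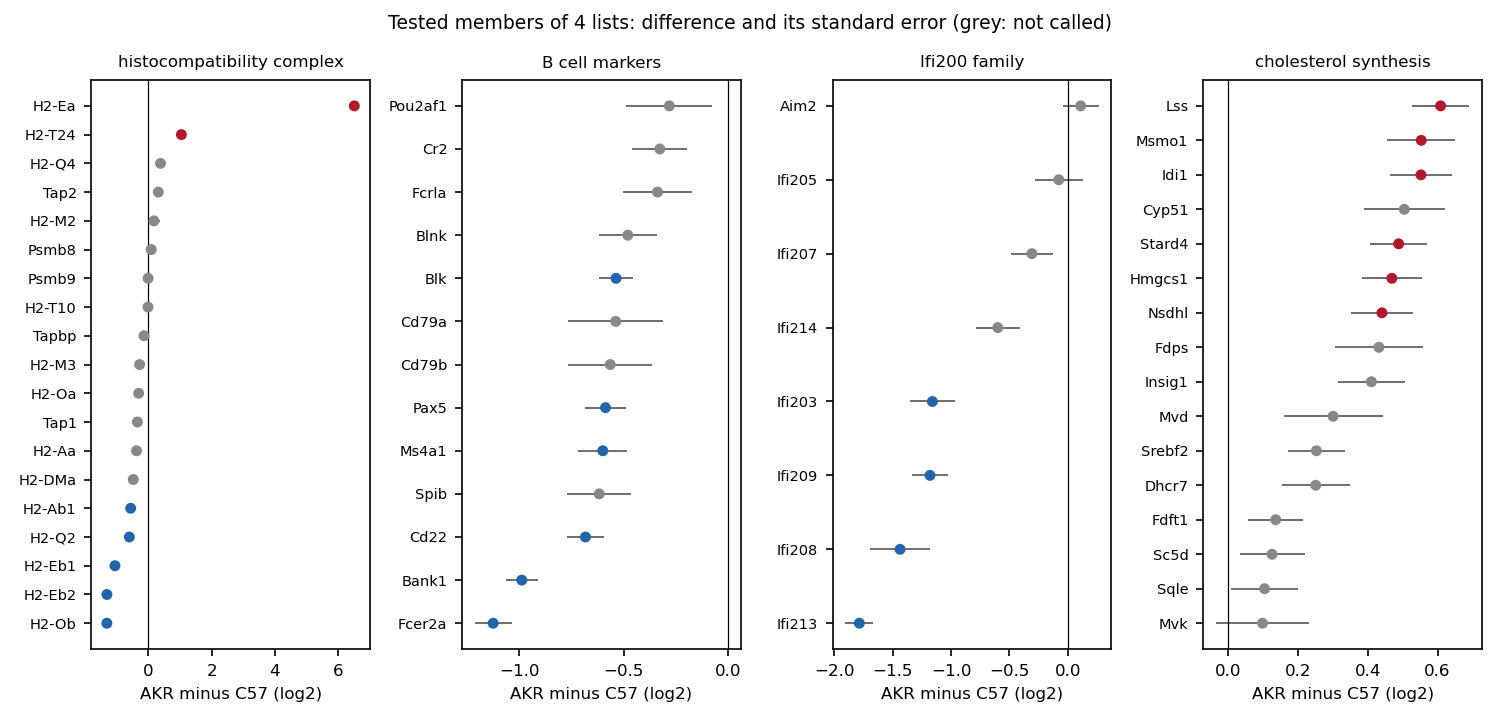
Difference between AKR and C57 lung in room air (log2, with its standard error) for the tested members of 4 lists: the major histocompatibility complex, B cell markers, the Ifi200 family and cholesterol synthesis. Blue points were called lower in AKR, red points called higher and grey points not called. All 13 B cell markers lie left of 0 and all 16 cholesterol genes right of it; horizontal scales differ between panels.

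Some members of a list of genes of retroviral entry and restriction read much lower in AKR. Trim12a, a member of the Trim5-like family, read 4.42, 4.68 and 4.90 in AKR and 8.47, 8.65 and 8.69 in C57. Trim30d, of the same cluster, read 5.32, 4.35 and 4.87 in AKR and 7.69, 7.63 and 7.89 in C57. Both lay below the intensity filter on every AKR array and were lower by differences of -3.94 ± 0.13 (adjusted p = 1.27e-05) and -2.89 ± 0.22 (adjusted p = 0.000663). Their paralog Trim12c was the only called member to be higher in AKR, 0.90 ± 0.18 (adjusted p = 0.0479), a call lost in each fit that left out 1 array (adjusted p up to 0.155), and Trim30a differed by -0.05 ± 0.09 (adjusted p = 0.842). These paralogs are similar in sequence, and how far their probes tell them apart was not tested. Apobec3, a deaminase that restricts mouse leukemia viruses, read 8.51, 7.95 and 8.24 in AKR and 9.62, 9.97 and 10.14 in C57, a difference of -1.68 ± 0.18 (adjusted p = 0.00306), and its second probe set gave -1.39. Among 13 tested genes of retroviral entry and restriction, 1 was called higher and 3 lower, against 3.00% of all genes called, with a median of -0.05. Trim12a and Trim30d were tested only through the C57 arrays and had to be lower in AKR, so the filter in part set this count. Xpr1, the receptor of xenotropic and polytropic viruses, was at 0.04 ± 0.08 and Samhd1, which depletes nucleotides, at 0.27 ± 0.09, neither called (adjusted p = 0.868 and 0.172).

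The Ifi200 family, interferon-inducible nucleic acid sensors and nuclear proteins encoded side by side, was lower in AKR at 4 of 8 tested members, against 1.62% of all genes, with a median of -0.88. Ifi213 read 5.57, 5.98 and 5.80 in AKR and 7.62, 7.43 and 7.66 in C57, a difference of -1.79 ± 0.12 (adjusted p = 0.00045). Ifi208, Ifi209 and Ifi203 differed by -1.44 ± 0.26, -1.18 ± 0.15 and -1.16 ± 0.19, and none of these 4 overlapped between strains. Ifi213 and Ifi208 lay below the intensity filter on every AKR array. They were tested only through the C57 arrays and had to be lower in AKR, so the filter in part set the share of 4 of 8. Ifi205 and Aim2, the DNA sensor of the inflammasome, were at -0.08 ± 0.20 and 0.11 ± 0.15, not called (adjusted p = 0.91 and 0.801). Ifi213, Ifi209 and Ifi208 were also 1 of only 2 runs of 3 neighbouring tested genes called in the same direction, by gene order in GRCm38.p6; the other was Pomt1, Uck1 and Swi5 (named after their values were seen), higher in AKR by 0.95 on average. A called gene had a called neighbour on either side in 15.6% of cases, and a gene not called in 5.47%. Without AKR array 1, 2 or 3, 4, 3 and 2 members of the family were called, and without C57 array 1, 2 or 3, 3, 2 and 2. Ifi202b, a member known for its strain differences, lay under the filter and ran the other way: it read 6.40, 5.79 and 5.79 in AKR and 3.93, 4.54 and 4.05 in C57, a difference of 1.82 ± 0.21 in the fit without the filter (adjusted p = 0.00434).

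Interferon-stimulated genes as a class were not called at any of 20 tested members (median 0.05), beside 3.00% of all genes called. Of 9 tested interferon-induced GTPases, which attack vacuoles of intracellular microbes, 2 were called lower in AKR, against 1.62% of all genes. All 9 were below 0 (median -0.41). Iigp1 read 6.98, 6.29 and 6.97 in AKR and 7.85, 7.83 and 8.31 in C57, a difference of -1.25 ± 0.21 (adjusted p = 0.0251), and Gbp4 was at -0.74 ± 0.14 (adjusted p = 0.0337). Iigp1 lost its call without AKR array 1 or 3 or C57 array 2 or 3 (adjusted p up to 0.0745), and Gbp4 without each array other than C57 1 (adjusted p up to 0.139). Ifitm6, of the interferon-induced transmembrane family, read 6.53, 5.55 and 5.52 in AKR and 7.97, 7.36 and 7.52 in C57, lower by a difference of -1.75 ± 0.28 (adjusted p = 0.0198). Its call was lost without AKR array 2 or 3 or C57 array 2 or 3 (adjusted p up to 0.0846).

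Chemokine genes called between the strains were all lower in AKR, 4 of 23 tested cytokines and chemokines against 1.62% of all genes, with a list median of -0.08. Ccl17, which draws CCR4-bearing T cells, read 7.03, 7.18 and 7.09 in AKR and 9.42, 9.30 and 8.71 in C57, a difference of -2.04 ± 0.17 (adjusted p = 0.00113). Ccl22, the other ligand of CCR4, read 6.44, 6.73 and 6.86 in AKR and 7.72, 8.15 and 7.88 in C57, a difference of -1.24 ± 0.15 (adjusted p = 0.0056). Ccl5, a chemokine of T cells, was at -0.93 ± 0.09, and Cxcl14, an epithelial and stromal chemokine, at -0.71 ± 0.10, and without C57 array 2 the latter was not called. The strains did not overlap in any of the 4 genes. Ccl17 and Ccl22 were also the only called members among 12 dendritic cell markers (median 0.04), against 1.62% of all genes called lower. Csf3r and Cxcr2, receptors on neutrophils, were at 0.65 ± 0.14 and 0.72 ± 0.22, not called (adjusted p = 0.0562 and 0.159), as was every tested neutrophil marker (8).

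Alveolar macrophage markers pointed both ways. Chil3, the chitinase-like protein Ym1, read 8.34, 7.46 and 7.70 in AKR and 9.38, 9.52 and 8.76 in C57, a difference of -1.39 ± 0.26 (adjusted p = 0.0359). Mrc1, the mannose receptor, read 9.63, 9.46 and 9.68 in AKR and 9.15, 8.94 and 9.06 in C57, higher by 0.54 ± 0.10 (adjusted p = 0.0305). The other 11 tested markers were not called, so 2 of 13 were, against 3.00% of all genes, and the list median was 0.08. Without AKR array 1, 2 or 3 the called markers numbered 1, 1 and 0, and without C57 array 1, 2 or 3 they numbered 3, 0 and 1.

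The complement system tags and lyses microbes through a cascade of plasma proteins, some of which the lung makes itself. Of 21 tested genes, 4 were lower in AKR and 1 higher, against 3.00% of all genes called in either direction, with a median of -0.19. C4b, the fourth component, read 8.47, 8.23 and 8.37 in AKR and 9.84, 9.88 and 10.20 in C57, and its close copy C4a read 6.61, 6.38 and 6.42 in AKR and 7.13, 7.18 and 7.25 in C57. Their differences were -1.61 ± 0.12 (adjusted p = 0.000633) and -0.72 ± 0.09 (adjusted p = 0.00757), and since the copies are similar in sequence, some signal may be shared. C1qc, a chain of the initiator C1q, was lower by a difference of -0.79 ± 0.11 (adjusted p = 0.00973), while its sister chains C1qa and C1qb were at -0.44 ± 0.12 and -0.21 ± 0.11, not called. Cfb, factor B of the alternative pathway, was higher by 0.48 ± 0.09 (adjusted p = 0.0325). Without AKR array 1, 2 or 3, 5, 5 and 3 complement genes were called, and without C57 array 1, 2 or 3, 6, 3 and 4; C4b and C4a were called in each of these fits.

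Proteases and their inhibitors, studied in smoke-exposed lung for their part in matrix loss, were called at 5 of 25 tested members, 2 higher in AKR and 3 lower (median 0.08), against 3.00% of all genes. Ctse, cathepsin E, an aspartic protease of endosomes, read 8.69, 8.78 and 8.59 in AKR and 7.08, 7.07 and 6.74 in C57, higher by 1.73 ± 0.11 (adjusted p = 0.000405). Slpi, an inhibitor of neutrophil elastase, read 8.90, 8.28 and 8.69 in AKR and 7.83, 7.79 and 7.74 in C57, higher by 0.84 ± 0.15 (adjusted p = 0.0303). Mmp3, stromelysin, read 6.69, 7.20 and 6.41 in AKR and 8.02, 8.23 and 8.21 in C57, lower by a difference of -1.39 ± 0.19 (adjusted p = 0.00973). Mmp2, a gelatinase, and Serpina3n, a serine protease inhibitor, were also lower, at -0.55 ± 0.09 and -0.66 ± 0.13, and Mmp12, the macrophage elastase, was at 0.17 ± 0.19, not called (adjusted p = 0.736). Without AKR array 1, 2 or 3 the list held 3, 3 and 2 calls, and without C57 array 1, 2 or 3 it held 4, 1 and 2. Ctse was called in each of them.

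Fibroblast and matrix lists held 2 calls each. Dpt, dermatopontin, which binds collagen fibrils, read 9.98, 10.11 and 9.81 in AKR and 11.35, 11.28 and 11.27 in C57, a difference of -1.33 ± 0.10 (adjusted p = 0.000611). Mfap5, a protein of elastic microfibrils, read 8.65, 8.47 and 8.46 in AKR and 9.41, 9.47 and 9.45 in C57, a difference of -0.92 ± 0.08 (adjusted p = 0.00165). Both kept their call without each array. Of all genes, 1.38% were called higher and 1.62% lower. Over the lists, 1 of 15 tested fibroblast markers was higher and 1 lower (Dpt), and 2 of 24 matrix genes were lower, with medians of 0.00 and -0.04. The higher one was Col13a1, a transmembrane collagen, at 0.40 ± 0.08 (adjusted p = 0.0429), which was called without C57 array 1 and in no other fit that left out 1 array (adjusted p up to 0.202).

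Enzymes of cholesterol synthesis were higher in AKR lung. They build sterol from acetyl-CoA and are switched on together by SREBP-2 when membrane sterol is low, and alveolar type 2 cells use sterol in surfactant. Of 16 tested genes, 6 were called, all higher, against 1.38% of all genes, and all 16 lay above 0 (median 0.42). Lss, which closes the sterol rings, read 9.33, 9.43 and 9.47 in AKR and 8.87, 8.73 and 8.81 in C57, higher by 0.61 ± 0.08 (adjusted p = 0.00978). Idi1, which isomerises the isoprene unit, read 9.81, 9.64 and 9.89 in AKR and 9.23, 9.21 and 9.24 in C57, higher by 0.55 ± 0.09 (adjusted p = 0.02). Hmgcs1, the synthase that makes HMG-CoA, read 10.32, 10.33 and 10.38 in AKR and 9.76, 9.87 and 9.99 in C57, higher by 0.47 ± 0.09 (adjusted p = 0.0326). None of the 3 overlapped between strains. Msmo1 and Nsdhl, which strip methyl groups from the ring, were at 0.55 ± 0.10 and 0.44 ± 0.09, and the sterol carrier gene Stard4 at 0.49 ± 0.08. Sqle, the squalene oxidase, and Srebf2, the gene of SREBP-2, were at 0.11 ± 0.10 and 0.25 ± 0.08, not called (adjusted p = 0.669 and 0.181). The differences were small: without AKR array 1, 2 or 3, 1, 2 and 0 of these genes were called, and without C57 array 1, 2 or 3, 8, 0 and 1. After saline instillation the median of the list was -0.19, where the median of all genes tested was -0.16.

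The Hmgcs1 window is shown because it was the only one of the list's windows to hold letters of a sterol regulatory element, TCACNCCAC, searched on both strands and shown in capitals (RefSeq, GRCm38.p6).
Hmgcs1 (chr13:119690101-119690400, plus strand): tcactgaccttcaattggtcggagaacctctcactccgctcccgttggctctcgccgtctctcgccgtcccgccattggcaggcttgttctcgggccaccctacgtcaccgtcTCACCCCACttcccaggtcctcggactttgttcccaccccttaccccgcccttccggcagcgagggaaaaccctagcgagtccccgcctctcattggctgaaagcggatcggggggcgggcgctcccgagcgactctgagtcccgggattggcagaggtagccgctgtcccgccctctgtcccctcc
These letters were in 1.24% of all promoter windows, and those of Lss, Idi1, Msmo1 and Nsdhl, which were higher in AKR too, did not hold them. Stard4 had no entry.

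Most genes of 2 redox and detoxifying lists lay below 0. These were 18 of 20 tested NRF2 targets (median -0.21) and 25 of 31 cytochrome P450 and other detoxifying enzymes (median -0.15). Of the latter 2 were called, both lower, against 1.62% of all genes. Relative to the mean of the 6 arrays, the latter averaged -0.02, -0.06 and -0.27 in AKR and -0.05, 0.18 and 0.22 in C57, so the strains overlapped. NRF2 targets averaged -0.06, -0.05 and -0.19 in AKR and 0.02, 0.12 and 0.16 in C57. The part of airway content in these averages was not tested. Gsr, glutathione reductase, read 10.77, 10.93 and 10.87 in AKR and 9.90, 10.09 and 10.05 in C57, higher by 0.84 ± 0.09 (adjusted p = 0.00306). Gclc, the catalytic subunit that starts glutathione synthesis, read 11.20, 11.25 and 11.07 in AKR and 11.74, 11.96 and 11.89 in C57, lower by a difference of -0.69 ± 0.09 (adjusted p = 0.00938). The strains did not overlap in either gene, although the call of Gclc was lost without AKR array 3 or C57 array 2 (adjusted p up to 0.0547). Together with Gsta3, a glutathione transferase at -0.42 ± 0.09, they were the 3 called among the NRF2 targets, against 3.00% of all genes. Gsta3 lost its call in each fit that left out 1 array (adjusted p up to 0.222). Nqo1, a quinone reductase, was at -0.38 ± 0.09 and Slc7a11, the cystine transporter, at -0.52 ± 0.11, not called (adjusted p = 0.0693 and 0.058). None of 7 tested genes of the aryl hydrocarbon receptor list, which holds the receptor, its partner Arnt and targets, was called. Cyp1a1, its best-known target, lay under the filter at 5.33, 5.17 and 5.59 in AKR and 6.79, 6.34 and 6.29 in C57, and differed by -1.10 ± 0.16 in the fit without the filter (adjusted p = 0.0142).

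Several of the largest differences lay outside these lists. Among genes higher in AKR, Veph1, a PH domain protein, read 8.94, 8.76 and 9.01 in AKR and 6.81, 6.39 and 6.66 in C57, a difference of 2.29 ± 0.12. Abca17, an ABC transporter, was higher by 1.88 ± 0.15, Mrap2, an accessory protein of melanocortin receptors, by 1.87 ± 0.12, and Map2, a microtubule-associated protein, by 1.68 ± 0.13. Cytl1, a secreted cytokine-like protein, read 10.70, 11.08 and 11.26 in AKR and 9.37, 9.71 and 9.22 in C57, higher by 1.58 ± 0.17. The kinase gene Stk32c, the dynein heavy chain gene Dnah8 and Alpl, tissue-nonspecific alkaline phosphatase, followed at 1.58 ± 0.08, 1.47 ± 0.11 and 1.42 ± 0.08, and Exd1, of the piRNA pathway, at 1.5 ± 0.15. All 9 kept their call without each array in turn, as did the transcript AY036118 at 1.47 ± 0.13. The small nucleolar RNA gene Snord14e, at 1.67 ± 0.31, lost its call without any array other than AKR 1 (adjusted p up to 0.124). Ankrd1, a cardiac ankyrin repeat protein on the heart muscle list, read 10.56, 11.06 and 11.27 in AKR and 8.70, 9.87 and 9.71 in C57, higher by 1.54 ± 0.31 (adjusted p = 0.0455). It was lowest on C57 array 1, which also had the lowest heart muscle average (-1.07), and it was no longer called without any one of the other arrays (adjusted p up to 0.181). The part of heart tissue in that value was not tested.

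Among genes lower in AKR, Pttg1, the securin that holds sister chromatids together, read 6.79, 7.02 and 7.06 in AKR and 9.21, 9.54 and 9.53 in C57, a difference of -2.47 ± 0.12 (adjusted p = 0.000174). Akr1e1, an aldo-keto reductase, read 6.05, 5.56 and 5.99 in AKR and 8.14, 8.35 and 8.42 in C57, a difference of -2.43 ± 0.14 (adjusted p = 0.000296). The strains did not overlap in either gene. Of 20 tested cell cycle genes only Mcm6, of the replicative helicase, was called, at -0.92 ± 0.16, beside 1.62% of all genes called lower. Its call was lost without AKR array 2 or C57 array 2 or 3 (adjusted p up to 0.0893). Nxpe4, of the neurexophilin-like family, differed by -2.35 ± 0.13, Nme9, of the nucleoside diphosphate kinase family, by -2.04 ± 0.20, and the transcription factor gene Sox11 by -1.85 ± 0.14. Cyp2r1, the hydroxylase that makes 25-hydroxyvitamin D, read 5.17, 5.06 and 5.09 in AKR and 6.90, 7.21 and 7.20 in C57, a difference of -2.0 ± 0.10 (adjusted p = 0.000224). Pttg1, Akr1e1, Nxpe4, Nme9, Sox11 and Cyp2r1 kept their call without each array. So did 4930578G10Rik, a transcript of no known role here, and the pseudogene Gpr137b-ps, at -2.69 ± 0.20 and -2.10 ± 0.22. Akr1e1, Cyp2r1 and 4930578G10Rik lay below the intensity filter on every AKR array. They were tested only through the C57 arrays and so had to be lower in AKR. Agr3, a disulfide isomerase of ciliated airway cells, read 7.29, 6.89 and 6.38 in AKR and 7.92, 8.95 and 9.03 in C57, a difference of -1.78 ± 0.33 (adjusted p = 0.0327). It was highest on C57 arrays 2 and 3, which also had the highest club cell averages, and its call held only without C57 array 1 (adjusted p up to 0.133 otherwise). The part of airway tissue in that value was not tested.

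The single largest difference belonged to a probe set annotated to Kcnma1, a calcium-activated potassium channel gene. The probe set (10582545) read between 12.69 and 13.17 on the AKR arrays and 5.46, 5.39 and 5.17 in C57, a difference of 7.61 ± 0.14 (adjusted p = 2.02e-07). A second probe set of the same gene read 6.44 to 6.87 in AKR and 6.48 to 7.03 in C57 and differed by -0.18. Of the 4 transcript records listed for the first, 0 were RefSeq transcripts of Kcnma1, against 17 of 20 for the second, so the value is given for the probe set and not for the channel. In all, 14 called genes had other probe sets over the filter, and of these 17 probe sets 15 had the sign of the gene's value, 5 of them called and none called in the other direction. Whether AKR sequence under single probes moved a value was not tested.

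Many gene groups held no call between the strains, beside 3.00% of all genes called. Lists of this size can hold no call at that share, so the lack of calls is no finding about the groups. No marker was called among 13 of alveolar type 2 cells (median 0.07), 14 of endothelium (0.12), 14 of ciliated cells (-0.38), 23 of oxidative phosphorylation (0.08), 23 of fatty acid metabolism (0.04), 18 of the unfolded protein response (0.03), 20 of pattern recognition (0.03) or 17 of coagulation (0.06). Of 10 alveolar type 1 markers only Pdpn, podoplanin, was called, higher by 0.63 ± 0.10 (adjusted p = 0.0167), beside 1.38% of all genes called higher. Ager, the receptor for advanced glycation end products, was at 0.49 ± 0.12 (adjusted p = 0.0868). Pdpn was also 1 of 2 called among 6 tested lymphatic endothelium markers, both higher. That list held no call without any 1 array other than C57 1. Pdpn lost its call without each array other than C57 1 (adjusted p up to 0.0956). None of 16 heat shock genes was called, and Hspa1a, the inducible chaperone HSP70, varied most: it read 8.71, 11.13 and 11.64 in AKR and 8.99, 9.14 and 9.27 in C57, with AKR array 1 apart from the other AKR arrays. A p that misses the threshold does not show that the strains were alike in these groups, since the median standard error of a difference was 0.10.

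Lungs that had breathed room air and then received saline gave the same contrast on other arrays, 3 of AKR and 3 of C57. These arrays differ from the room air arrays in the label weeks and in the instillation, and their AKR and C57 arrays come from sets with different intensity distributions, which cannot be told apart from strain there. In that contrast 5537 of 13861 genes were called (39.9%), 1034 higher in AKR and 4503 lower, with a median difference of -0.16; after quantile normalization of the 6 arrays the split was 2349 higher and 2472 lower. Of the 412 genes called in room air, 371 had the same sign after saline, 289 were called in the same direction (70.1% of the room air calls, 5.22% of the saline calls) and 4 in the opposite one. Of the 110 genes with a room air difference of 1 or more, 91 were called in the same direction, and of the 12 with 2 or more, all 12. H2-Ea differed by 6.62 ± 0.11 after saline, Trim12a by -4.96 ± 0.12 and Pttg1 by -2.47 ± 0.11. Ctse, higher by 1.73 in room air, was at -0.20 ± 0.10 after saline (adjusted p = 0.131), and Cytl1 was at 0.30 ± 0.35 (adjusted p = 0.515).

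The remaining 25 arrays, 13 of AKR and 12 of C57, covered the other treatments and included the saline arrays above. Their median intensities were 6.80 to 6.90 on the AKR arrays and 6.96 to 7.10 on the C57 arrays. Strain and array set thus cannot be told apart on them. On them the strains did not overlap, in the direction of room air, at 157 of the 412 genes, and at 902 of all 13735 tested (6.57%). Among genes that differed by 1 or more the count was 59 of 110, and among those that differed by 2 or more, 11 of 12. H2-Ea read 11.3 to 12.5 on these AKR arrays and 4.92 to 5.45 on the C57 arrays. Trim12a read 3.87 to 4.67 on the AKR arrays and 8.76 to 10.2 on the C57 arrays. H2-Eb1 read 8.87 to 9.98 in AKR and 10.6 to 11.6 in C57, C4b 8.16 to 8.94 and 9.56 to 10.5, and Dpt 8.60 to 10.5 and 10.6 to 11.5. In these 5 genes the AKR and C57 values were thus apart on these arrays too, and the part of the array set in that was not tested. By contrast, Lss read 8.38 to 9.08 in AKR and 8.66 to 9.24 in C57 on these arrays, and Bank1 6.27 to 8.57 and 7.20 to 9.67, with the strains overlapping.

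**Figure D5:**
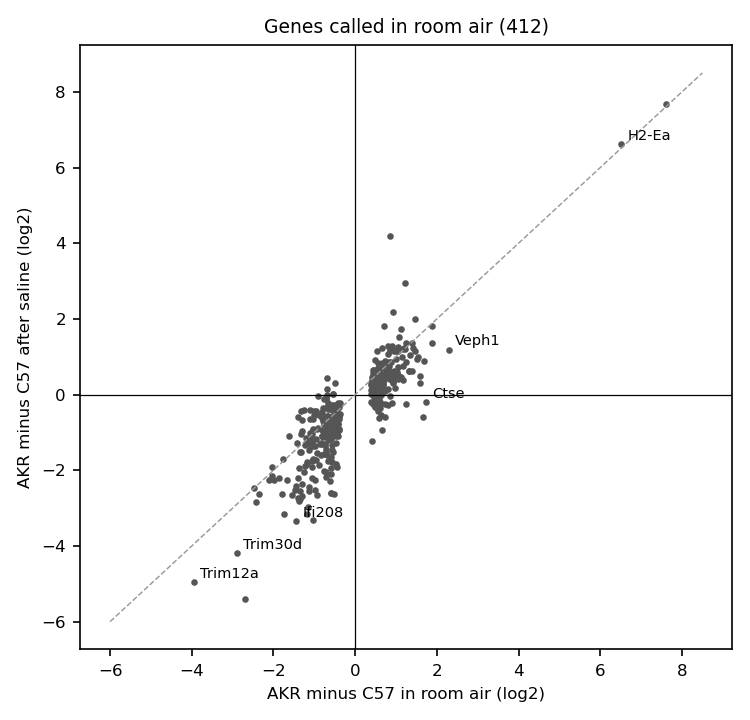
Strain difference after saline instillation (vertical axis, AKR minus C57, log2) against that in room air (horizontal axis) for the 412 genes called in room air; the dashed line marks equal differences. Of these points, 371 have the same sign on both axes, H2-Ea lies near the line at 6.51 and 6.62, and Ctse lies near 0 after saline.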

How the data were processed

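The deposited series matrix holds log2 intensities, which the authors summarised by RMA (robust multichip average), per the submitters' processing notes; its version and settings are not given in the sources used here. Per the labels' protocols, biotin-labelled cRNA was run by the standard Affymetrix protocol. The genome build behind the probe sets is not given in the sources used here. The deposited table held 35556 probe sets, of which the platform annotation gave 21789 exactly 1 symbol and 1621 several. Symbols were updated through Entrez identifiers (99.6% matched), and the brightest probe set over the 6 arrays stood for a gene, which gave 19938 genes. Genes above the percentile 40 of an array on at least 3 of the 6 arrays were tested.

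The 3 AKR and 3 C57 arrays were compared with limma 3.58.1 in R 4.3.3 (lmFit and eBayes, 2 group means, 4 residual degrees of freedom), two-sided, with Benjamini-Hochberg adjustment over all 13735 genes, and a gene was called at an adjusted p under 0.05. Replicates are separate samples per the labels, which do not say that they were separate animals, so p-values measure the spread between these samples. The fit was tested on simulated data (13735 genes, 200 of them changed), in which 9 of 198 calls were false. Noise was drawn for each gene on its own, so airway, heart or fat content shared between genes was not part of that test. Alternatives were other filters, normalizations and fits, and leaving out each array. Members, lists and alternatives were chosen with earlier results of these data known. The rule for named genes allowed the 15 largest called differences in each direction, up to 4 members of each list by size (not all are printed), members that complete a family, strain loci and sex genes; others were picked after their values were seen. Promoter windows (RefSeq, GRCm38.p6) were matched by symbol. Figures used Python 3.11.15 and matplotlib 3.10.9.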

Additional observations from a re-analysis of the deposited data

Results flagged for a closer look

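For 43 of the 90 named genes called in room air, the strain difference after saline instillation differed from that in room air (limma, difference of the differences, adjusted p under 0.05). It did so for 3037 of 14022 genes tested and for 138 of the 412 called in room air. The values below are the difference after saline minus that in room air, in log2 units. The AKR saline arrays lie in a set of arrays with another intensity distribution, and the median of these values over all genes tested was -0.18. The part of the array set in these values was not tested. In 34 of the 43 genes the strain difference had the same sign in both settings.

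The following immune genes were lower in AKR in room air and lower still after saline. For B cell genes the value was -2.28 for Igha, -2.01 for Ms4a1, -1.53 for Bank1, -1.43 for Fcer2a, -1.05 for Pax5, -0.98 for Blk and -0.92 for Cd22. For genes of the histocompatibility complex it was -1.5 for H2-Q2, -1.37 for H2-Ob, -1.22 for H2-Ab1, -1.05 for H2-Eb2 and -0.86 for H2-Eb1. Interferon-inducible members stood at -1.98 for Ifi209, -1.90 for Ifi208, -1.80 for Ifi203, -0.85 for Ifi213 and -1.40 for Ifitm6. The tripartite motif genes Trim30d and Trim12a were at -1.30 and -1.02. The chemokine genes Ccl5 and Cxcl14 were at -1.72 and -0.80, the chitinase-like Chil3 at -1.43 and the natural killer receptor gene Klrb1b at -0.60. The clock output gene Hlf, lower in AKR too, was at -0.74, and the transcript 4930578G10Rik at -2.70.

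A further set was higher in AKR in room air and less so, or not, after saline. Ctse, cathepsin E, went from 1.73 to -0.20, a value of -1.93 (adjusted p = 3.92e-05). Trim12c went from 0.90 to -0.21, a value of -1.11, and Snord14e from 1.67 to -0.58, a value of -2.25. The value was -1.10 for Veph1, -1.09 for Stk32c, -0.80 for Map2 and -0.72 for Mrc1, the mannose receptor gene. The cholesterol genes Msmo1, Stard4, Lss, Nsdhl and Hmgcs1 were at -0.83, -0.82, -0.80, -0.69 and -0.47. In 6 genes the value was above 0. Of these, Mfap5 at 0.89, Mmp3 at 0.79, Gclc at 0.68, C4b at 0.52 and C1qc at 0.43 were lower in AKR in room air by more than after saline, and Cfb, at 0.44, was higher in AKR by more after saline.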

How the results depend on the processing

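The 412 room air calls numbered 382 with all 31 arrays in 1 fit, 519 in that fit without C57 smoke saline 3 and C57 smoke LPS 3, 330 without the intensity filter, 361 with a filter at percentile 60, 411 after quantile normalization of the 6 arrays, 466 with an intensity trend and robust prior, 421 with every probe set on its own and 418 with the mean of a gene's probe sets. They numbered 110 when an absolute difference of 1 was asked for too. With the replicate number as a block there were 185, of which 179 were among the 412. The numbers do not pair the arrays: deviations from the strain means correlated at -0.03, 0.44 and -0.40 for numbers 1, 2 and 3, and only the arrays numbered 2 correlated best with each other. Leaving out 1 array gave between 136 and 586 calls: 182, 256 and 143 without AKR 1, 2 and 3, and 136 and 183 without C57 2 and 3. With the array mean of the heart muscle list as a covariate, chosen after seeing the data, 680 genes were called, 411 of them among the 412; with that of the club cell list, 334 were, 246 of them shared. No shared call turned in direction. Of 126 genes followed, 90 were called, 44 of these in every setting, and each of the 90 kept its sign. Against 5537 saline calls, other settings with all 6 arrays gave from 4377 (replicate block) to 7452 (no filter), and leaving out 1 array from 3570 (without C57 2) to 6111.

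On simulated data with 3 arrays a strain, the fit called 89.0% of genes shifted by 1 and 100% of those shifted by 2 on the log2 scale. Smaller shifts, and noise shared between genes, were not simulated. A gene near the array floor gives only a bound on a difference, and 12146 of 35556 probe sets carry no name here.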

Other observations

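Single genes not yet named, picked after their values were seen, differed too. Lyz1, a lysozyme of lung epithelium and macrophages, read 13.68, 13.56 and 13.80 in AKR and 12.90, 12.69 and 12.43 in C57, higher by 1.01 ± 0.13 (adjusted p = 0.00803). Cftr, the chloride channel of airway and alveolar epithelium, read 8.48, 8.13 and 8.61 in AKR and 6.90, 7.07 and 7.22 in C57, higher by 1.34 ± 0.14 (adjusted p = 0.00313). Atp13a4, a P5-type transport ATPase, was higher by 1.38 ± 0.08 and Myh7, the slow cardiac myosin heavy chain, by 1.20 ± 0.09. Chil1, a chitinase-like glycoprotein, read 11.61, 11.50 and 11.62 in AKR and 13.05, 12.87 and 12.88 in C57, lower by a difference of -1.36 ± 0.09 (adjusted p = 0.000348). Each of these 5 was also called when any 1 array was left out. Upk1b, a uroplakin on the mesothelium list, was lower by a difference of -1.02 ± 0.18 (adjusted p = 0.0284), and was not called without AKR 3 or without any 1 of the C57 arrays (adjusted p up to 0.0924). Hhip, an inhibitor of hedgehog signalling on the smooth muscle list, was lower by a difference of -0.50 ± 0.09 (adjusted p = 0.0326), a call kept only without C57 1 among the fits that leave out 1 array (adjusted p up to 0.139).

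Hlf, a PAR bZIP factor of the circadian clock, read 8.26, 8.33 and 8.31 in AKR and 9.04, 8.96 and 9.01 in C57, a difference of -0.71 ± 0.07 (adjusted p = 0.00311). It was the only call among 15 tested clock genes (median -0.17), beside 1.62% of all genes called lower. Its relative Dbp was at -0.61 ± 0.13 (adjusted p = 0.0612) and the repressor gene Bhlhe41 at -0.78 ± 0.16 (adjusted p = 0.0505), neither called. The hour of dissection is not given in the sources used here.

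Probe sets without a gene name differed between the strains too. Of 5623 tested in the fit of every probe set, 110 were called (1.96%), 45 higher in AKR and 65 lower, beside 267 of 15164 with 1 name (1.76%). Probe set 10582549 was at 11.8 in AKR and 5.57 in C57, a difference of 6.20 ± 0.23 (adjusted p = 7.34e-05). Probe sets 10375121 and 10375123 were lower in AKR by differences of -4.79 ± 0.14 and -4.76 ± 0.14, and probe set 10338109 by -4.01 ± 0.24. What these probe sets measure is not known here.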
